A study of Mus musculus with 51 samples.

Results

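The comparison described here sets *Eomes* knockout (KO) cells against wild-type (WT) cells on day 3 of mesoderm differentiation from mouse embryonic stem cells (mESCs). RNA-seq levels are FPKM, read density scaled to transcript length and to library size, and the tables list 24538 genes. A gene entered when its FPKM was above 1 in the WT or the *Eomes* KO column on day 3, which left 11629 genes. Each was described by the log2 ratio of KO to WT after adding a pseudocount of 0.1 to both values. It was called lower or higher in the KO when this ratio was below -1 or above 1, a change of more than 2-fold.

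The study traced how Bmp4 drives mESCs through nascent mesoderm towards cardiac mesoderm, and asked which genes depend on the T-box factors *Eomes* and *T*. The mESCs were freed of feeder cells and aggregated. All groups of days 1 to 3 were then cultured alike, as aggregates plated on fibronectin in medium with 20 ng/ml Bmp4. The WT column from before differentiation (ES) stands for cells that had been neither plated on fibronectin nor given Bmp4. WT cells were the F1G4 line. Both single KO lines, *Eomes* and *T*, were derived from it by cutting around the promoter and first exon with a Cas9 D10A nickase and picking single clones, and the double knockout (dKO) line was made from *Eomes* KO cells. By the labels, WT day 3 comprised 2 samples and *Eomes* KO day 3 comprised 1, whereas the figure legends describe KO values as averages of replicates, so the number of cultures in the KO column is unclear. Each column holds 1 value per gene for its condition. No spread between replicates, n or test can be given for any value, the depth is unknown, and a difference between the columns includes any difference between the clone and its parent line. In bulk RNA, fewer cells of a type and less RNA per cell cannot be told apart.

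*Eomes* encodes a T-box transcription factor of the primitive streak that is needed for mesoderm to leave the epiblast and for definitive endoderm to form. *T* (Brachyury) encodes a related factor of the streak and of posterior mesoderm. In the streak, NODAL, WNT and FGF signals maintain the mesoderm genes, and several genes of these pathways are in turn activated by the mesoderm factors.

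The guides that made the *Eomes* KO are shown because they define the lesion. They lie on chromosome 9 of GRCm38, and each site is written 5′ to 3′ on the strand that matches the guide, with the NGG motif (PAM) needed by Cas9 in capitals.
Guide 1, chr9:118477880-118477899, minus strand: acatggtctacccacggcatAGG
Guide 2, chr9:118477922-118477941, plus strand: tccggcgccatagagccaccGGG
Guide 3, chr9:118479771-118479790, minus strand: tcacgtagatctgccctcaaGGG
Guide 4, chr9:118479805-118479824, plus strand: ggtttgcagcaggcgatttgTGG
The guides of the first pair matched opposite strands 22 bases apart, and those of the second pair 14 bases apart. From the first to the last guide base the interval covered 1945 bases. It held the whole of exon 1 of the GENCODE transcript of *Eomes* (chr9:118478344-118479546, 1203 bases, with the start of the coding sequence), the first pair ending 403 bases before this exon and the second pair lying in the first intron, 225 bases after exon 1 and 643 bases before exon 2. The other 5 of the 6 exons lay outside. The 250 bases before the RefSeq start of *Eomes* (chr9:118477939-118478188, plus strand, GRCm38.p6) lay within the targeted interval and are given because the KO was designed to lack them.
*Eomes* promoter: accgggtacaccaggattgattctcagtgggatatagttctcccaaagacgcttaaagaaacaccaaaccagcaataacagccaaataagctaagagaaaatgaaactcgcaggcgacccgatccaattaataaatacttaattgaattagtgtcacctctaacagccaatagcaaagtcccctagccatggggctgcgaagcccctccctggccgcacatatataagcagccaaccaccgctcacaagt

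FPKM of *Eomes* (9:118478186-118486132) on day 3 was 20.3 in WT against 0.276 in the KO, a log2 ratio of -5.76. On day 2 it was 9.42 in WT and 2.42 in the KO. The KO column was therefore lower on both days, and by more on day 3. The deposited value is 1 number per gene and does not show which exons the remaining signal came from. Cells of the *T* KO line stood at 4.83 on day 3, between the WT and the *Eomes* KO, and dKO cells at 0.346. On day 2 the *T* KO stood at 24.7, above the 9.81 of its WT.

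Of the 11629 genes, 1011 (8.69%) were lower and 793 (6.82%) higher in the KO on day 3, together 15.5%. The counts of called list members further on are to be read beside these shares. Past 8-fold, 106 genes were lower and 41 higher. The median log2 ratio of all genes was -0.04. Genes above FPKM 1 in both columns numbered 10621. Of the 381 above 1 in WT alone 256 were called lower, and of the 627 above 1 in the KO alone 370 were called higher, and such genes could pass the minimum only by way of the column in which they were high. Higher calls lay mostly among weakly expressed genes. They made up 18.4% of the 1988 genes whose larger value was at most 3, against 1.08% of the 2964 genes above 30, where 10.9% were lower. The values next to the lower threshold were those of *Fem1c* (13.5 in WT and 6.69 in the KO, called lower) and *Rpl7a* (1314 and 657, not called), and next to the upper threshold those of *1700008J07Rik* (0.716 and 1.53, called higher) and *Fancg* (1.86 and 3.82, not called).

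**Figure D1:**
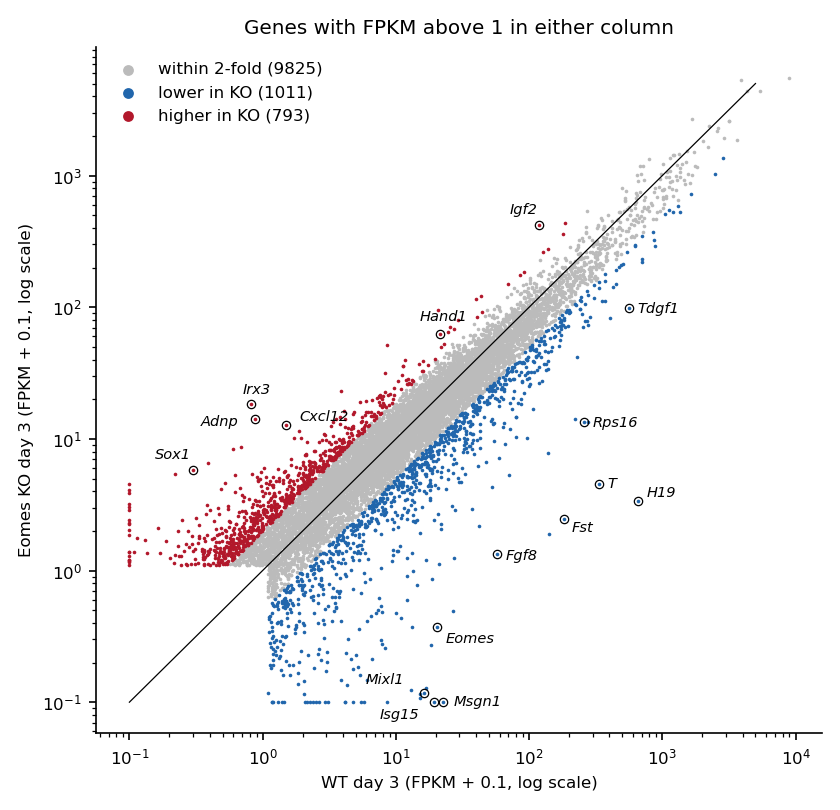
Each point is 1 of the 11629 genes, with FPKM + 0.1 on day 3 in WT (x axis) and *Eomes* KO cells (y axis), both on log scales; the line marks equal values, and blue, red and grey points are genes lower (1011), higher (793) and within 2-fold (9825). Named mesoderm genes such as *T* and *Fst* lie far below the line at high WT levels, whereas most of the higher genes lie at low WT levels, with exceptions such as *Igf2* and *Hand1*.

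Scaling bore on the balance of the calls. FPKM summed over all genes to 488785 in WT and 401510 in the KO, and rescaling both columns to equal sums (TPM) moved the log2 ratio of well-expressed genes up by about 0.28 and the median of all genes to 0.24. Ratios of genes near 0 moved otherwise, since the pseudocount weighed less after rescaling, and the nascent mesoderm median described further on went from -3.75 to -3.74. The calls were then 645 lower and 1509 higher in place of 1011 and 793. Of the called genes in the lists and ranks, 15 lost the call on the TPM scale. Among them *Wnt8a*, *Tcf7*, *Lef1*, *Bmp4*, *Crb3*, *Ifitm1*, *Ifitm3* and *Ndrg1* also lost it after removal of the trend with transcript length and GC content. *Atf3*, *Furin*, *Hoxb2*, *Pgk1*, *Rdh10* and *Sema6a* lost it on the TPM scale but not after trend removal, and *Rian*, *Peg10*, *Crb2*, *Efnb1*, *Ephb2* and *Fbn1* were no longer higher after trend removal. As a yardstick, the WT cells of the *Smad4* line and the F1G4 WT cells on day 2, neither of them a KO but of different lines, the former with conditional *Smad4* alleles, differed by more than 2-fold at 4.43% of 11117 genes (3% lower and 1.43% higher in the *Smad4* line). The spread of the log2 ratio (robust SD across genes) was 0.34 in that pair and 0.61 for the *Eomes* KO on day 3.

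Several genes outside the mesoderm lists differed widely between the columns, most of them in the other KO lines too. Among genes chosen after their values were seen, the Y-linked housekeeping genes *Eif2s3y*, *Uty* and *Ddx3y* had FPKM of 8.54, 6.02 and 4.19 in WT and of 0, 0.0478 and 0.0353 in the KO. They were also near 0 in *Eomes* KO cells on day 2 (0.105, 0.00686 and 0.00761) and in *T* KO (0.105, 0.0104 and 0.0518) and dKO cells on day 3 (0.175, 0.00 and 0.0428), so that all 3 KO lines differed from the parental column in these genes. *Kdm5d*, another Y-linked gene, was at 0 in WT and 0.00749 in the KO on day 3. *H19*, an imprinted growth-restraining RNA, stood at 654 in WT and 3.25 in the KO, and was also low in *T* KO (3.10) and dKO cells (4.49). *Rps16*, a ribosomal protein gene chosen after its values were seen and with pseudogene copies that may share its reads, had an FPKM of 258 in WT, of 13.3 in the *Eomes* KO column of day 3 and of 317 in that of day 2. Their part in the other results was not tested.

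Among the columns read here, *Rps16* was also low in *T* KO cells on day 2, at 8.54 against 289 in its WT. *Amd1*, a polyamine synthesis gene with a near-identical copy, had 15.0 in WT and 0.0144 in the *Eomes* KO on day 3, and 22.5 and 0.00462 in the *T* KO comparison of day 2. These columns belong to different lines and days and share no WT column, and whether their libraries were handled together was not given in the sources used here. In *T* KO cells on day 2, 1065 (9.38%) of 11359 genes were lower and 596 (5.25%) higher than in WT, together 14.6%. Both comparisons had 414 lower genes in common, 40.9% of the *Eomes* KO day 3 list and 38.9% of the *T* KO day 2 list, and 164 higher genes, 20.7% and 27.5%. These counts were not compared between lists by a test. Of the 16 nascent mesoderm genes lower in *Eomes* KO cells on day 3, 3 (*T*, *Mixl1* and *Fgf8*) were also lower in *T* KO cells on day 2, where *T* is the deleted gene and where several others, such as *Mesp1* (0) and *Wnt3a* (0.0491), were near 0 in WT already. The same held for 3 of the 11 lower interferon genes, 2 of the 3 lower core and formative pluripotency genes, both lower imprinted genes, all 4 lower *Atf4* targets and both lower immediate early genes, and for none of the 6 lower genes of ERK feedback. Of the 5 neural genes higher in *Eomes* KO cells on day 3, 4 (*Sox1*, *Zic2*, *Irx3* and *Irx5*) were also higher in *T* KO cells on day 2, against 20.7% of all higher genes. On day 3 *Sox1*, *Irx3* and *Irx5* had passed the minimum only by way of the *Eomes* KO column.

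Transcript length moved with the ratios. Genes were divided into 4 equal groups by length. In the shortest group (70 to 2150 bases) the median log2 ratio was -0.22, with 437 genes lower and 192 higher, and in the longest group (4769 to 123179 bases) it was 0.17, with 120 lower and 261 higher. On day 2 the order was the opposite, 0.11 in the shortest and -0.09 in the longest group, and in *T* KO cells on day 2 it was the same as here, from -0.07 in the shortest to 0.07 in the longest group. Ribosomal protein genes, which are short and highly expressed, had a median of -0.42 (80 genes, 10 lower and 1 higher). The 224 long non-coding RNAs had a median of 0.51, with 12 lower and 68 higher. Chromosome 8 genes had a median of 0.20 (654 genes, 27 lower and 71 higher) in *Eomes* KO cells on day 3, and likewise of 0.17 in the same line on day 2, 0.23 in *T* KO and 0.22 in dKO cells on day 3. When the trend with length and GC content was removed, 849 genes were lower and 818 higher.

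Most genes of nascent mesoderm were lower in the KO. Of 20 genes of the primitive streak and nascent mesoderm, 18 were examined, 16 were lower and none was higher, with a median log2 ratio of -3.75. *Snai1* (0.611 in WT and 0.329 in the KO) and *Mesp2* (0.0411 and 0.0423) were below the minimum. *Foxh1* (28.1 and 25.0) and *Cdx1* (1.15 and 0.538, a log2 ratio of -0.97 with the pseudocount) were not called. The FPKM of the list summed to 1358 in WT and 171 in the KO. Of these sums *Tdgf1*, which stood at 625 in WT before differentiation, held 558 and 97.8. Trend removal or rescaling to TPM left 15 genes lower and none higher.

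*T* (17:8434423-8442496) had an FPKM of 334 in WT and 4.46 in the KO, a log2 ratio of -6.19 or 74.8-fold. *Mixl1*, a homeobox gene of the streak, had 16.3 and 0.0179, a log2 ratio of -7.12. *Mesp1*, which directs early cardiac mesoderm, had 5.68 in WT and was listed at 0 in the KO. These transcription factors thus kept little of their WT signal. *Evx1*, a homeobox gene of the posterior streak, fell from 5.13 to 0.0854 (-4.82), and *Gsc*, a homeobox gene of the anterior streak and organizer, from 2.94 to 0.14 (-3.66). *Sp5*, a zinc-finger target of WNT signalling, stood at 13.2 and 0.273 (-5.15). *Lhx1*, an organizer homeobox gene, was low in both (1.32 and 0.0596). Of 17 T-box genes 4 were examined, and besides *Eomes* and *T* these were *Tbx3* (4.77 and 6.51) and *Mga* (21.8 and 29.6), neither of which was called, while the other 13 were below the minimum, among them *Tbx6* (0.766 and 0.143, -1.83).

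The T-box element AGGTGTGA, searched on both strands in the 300 bases from 250 before to 50 after the RefSeq start, occurred in 1.48% of 27025 promoters. Among the 13 nascent mesoderm genes with a promoter in the table, *Mesp1* held it. Its match lay on the opposite strand to the gene, from base 6 after the start, and is shown in capitals within chr7:79793568-79793595 (minus strand, GRCm38.p6) because *Mesp1* lost all listed signal.
*Mesp1* match: ggggcccgctTCACACCTagggctcagg
The match is a description of letters and not a binding site.

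**Figure D2:**
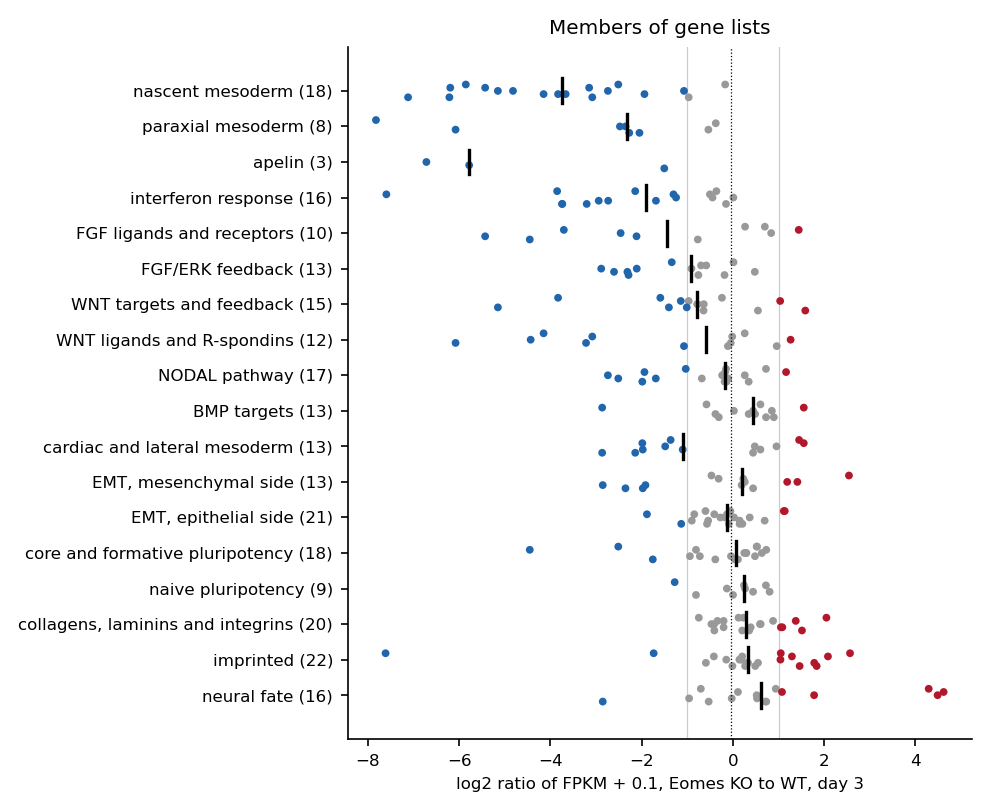
Points are the examined members of 18 gene lists (number in parentheses), placed by the log2 ratio of FPKM + 0.1 in *Eomes* KO to WT on day 3; blue is lower, red higher and grey within 2-fold, bars are list medians, and the dotted line is the median of all genes, -0.04. Among the lists drawn, apelin and nascent mesoderm genes have the lowest medians and neural genes the highest.

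Paraxial mesoderm genes were also low. Of 14 genes 8 were examined, 6 were lower and none higher, and the median was -2.31. *Msgn1*, a factor of presomitic mesoderm, stood at 22.5 in WT and was listed at 0 in the *Eomes* KO and likewise in the dKO and the *T* KO line. *Rspo3*, an R-spondin that strengthens WNT signalling, had 18.2 and 0.171 (-6.08). *Cited1*, a transcriptional co-regulator, had 13.5 and 3.20 (-2.05). *Tcf15*, a factor of somitic mesoderm, had 3.64 and 0.572 (-2.48). In the WT time course *Tcf15* was highest before differentiation, at 35.6, and stood at 3.20 on day 2 and 3.48 on day 3. *Dll3*, a Notch ligand of presomitic mesoderm, had 2.34 and 0.379. *Dll1* (1.92 and 1.29) and *Lfng* (3.73 and 2.85) were not called.

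All 3 genes of apelin signalling, which guides migrating mesoderm, were lower. The receptor *Aplnr* had an FPKM of 12.8 in WT and 0.023 in the KO (-6.72). The ligand *Apln* had 26.8 and 0.39 (-5.78). The ligand *Apela* had 132 and 46.3 (-1.50), so it remained well expressed. *Aplnr* was near 0 in *T* KO (0.045) and dKO cells (0.0277) as well, whereas *Apela* stood at 209 and 99.3.

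Cardiac and lateral mesoderm genes moved both ways. Of 22 genes 13 were examined, 7 were lower and 2 higher, with a median of -1.10. *Hand1*, a basic helix-loop-helix factor of lateral and extra-embryonic mesoderm, was higher, at 21.4 in WT and 62.9 in the KO (1.55). *Smarcd3*, a chromatin remodelling subunit of the heart, was higher at a low level (0.397 and 1.26). *Msx1*, a homeobox target of BMP, was lower (10.2 and 1.32), as were *Twist1*, a mesenchymal factor (4.64 and 1.11), and *Pdgfra*, a mesoderm receptor (1.89 and 0.61). *Msx2* (9.58 and 14.6), *Foxf1* (0.744 and 1.54) and *Tbx3* were not called. *Gata4* (0.673 and 0.192), *Gata6* (0.508 and 0.154) and *Kdr* (0.434 and 0) were below the minimum, and *Nkx2-5* was at 0 in both columns. With the minimum raised to 5 or removed, the list's median turned to 0.44 or 0.15.

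WNT genes differed by ligand. Of 23 ligands and R-spondins 12 were examined, 6 were lower and 1 higher, with a median of -0.59. *Wnt3*, the streak-inducing ligand, stood at 26.1 in WT and 3.00 in the KO (-3.08). *Wnt5b*, a ligand of the non-canonical branch, stood at 18.5 and 0.763 (-4.43), and *Wnt5a* of the same branch at 2.77 and 0.209. *Wnt3a*, a ligand of the posterior streak, stood at 1.94 and 0.0149. *Wnt8a*, another streak ligand, was lower by the smallest ratio of the 6 (43.5 and 20.7, -1.07). *Wnt4*, *Wnt6*, *Wnt7b* and *Wnt9a* were within 2-fold, and *Wnt10b* was higher at a low level (0.416 and 1.14). Of 21 WNT targets and feedback genes 15 were examined, 6 lower and 2 higher (median -0.78). *Axin2*, a feedback inhibitor, had 14.0 and 5.25 (-1.40), and *Tcf7* and *Lef1*, the nuclear partners of beta-catenin, had 17.5 and 7.89 and 6.83 and 3.34. *Sfrp1*, a secreted antagonist, was higher (1.52 and 4.76). After TPM rescaling 4 targets were lower and 2 higher.

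In the NODAL pathway 17 of 21 genes were examined, 6 were lower and 1 higher. The ligand *Nodal* had an FPKM of 32.1 in WT and 8.31 in the KO (-1.94). Its co-receptor *Tdgf1* had 558 and 97.8 (-2.51). The feedback antagonists *Lefty1* and *Lefty2* had 14.9 and 4.55 and 41.1 and 6.07. The ligand, the co-receptor and the antagonists were thus all lower. *Furin*, a protease that processes the ligand, had 6.22 and 2.99. Receptors and most transducers were not called, among them *Acvr1b* (7.54 and 6.84), *Acvr2b* (9.25 and 7.84), *Smad2* (10.5 and 12.6), *Smad4* (39.9 and 35.9) and *Foxh1*, but *Smad3*, a transducer, was higher (7.89 and 17.8). The median of the list was -0.18, and 0.09 after rescaling to TPM.

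BMP signalling genes were called about as often as the 15.5% of all genes. Of 21 ligands, receptors and antagonists 11 were examined and 2 were lower. These were *Bmp4* itself (2.80 and 1.25, not called on the TPM scale or after trend removal) and *Fst*, a secreted antagonist of activins and BMPs. *Fst* had an FPKM of 181 in WT and 2.35 in the KO (-6.21). Among 16 BMP targets 13 were examined, with *Msx1* lower and *Hand1* higher, or 1 lower and 4 higher on the TPM scale. The immediate targets *Id1* (30.4 and 20.3), *Id2* (26.6 and 21.4), *Id3* (42.7 and 32.7) and *Smad7* (8.56 and 10.9) were not called.

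Several FGF ligands were lower, and no receptor was. Of 16 genes 10 were examined, 5 were lower and 1 higher. *Fgf8*, the ligand of the streak that mesoderm migration needs, had an FPKM of 57.6 in WT and 1.24 in the KO (-5.43). *Fgf5*, the ligand of primed epiblast, had 27.1 and 1.15 (-4.45). *Fgf17* had 3.69 and 0.777, *Fgf18* had 1.16 and 0.129, and *Fgf3* had 1.20 and was listed at 0. *Fgfr2*, a receptor, was higher (7.52 and 20.6, 1.44), and *Fgfr1* (28.9 and 51.7) was not called. The median of the 10 genes was -1.44 but became 0.70 with a minimum of 5, where fewer genes remained. Of 14 feedback genes induced by ERK, 13 were examined, 6 were lower and none higher, at a median of -0.91. *Dusp6*, the ERK phosphatase, had 71.7 and 11.7 (-2.61), and *Dusp4*, a related phosphatase, had 26.6 and 5.37 (-2.29). The Sprouty antagonists *Spry2* and *Spry4* had 20.8 and 4.10 and 6.31 and 0.767. *Il17rd*, an FGF receptor antagonist, had 16.7 and 3.8, and *Etv5*, an ERK-induced factor, had 19 and 7.43. *Fos*, *Spry1* and *Spred2* were within 2-fold. The 6 calls were unchanged by TPM rescaling and by removal of the length and GC trend.

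Most genes of the interferon response were lower as well. Of 18 genes 16 were examined, 11 were lower and none higher, with a median of -1.91 and a summed FPKM of 492 in WT and 173 in the KO. On the TPM scale 10 were lower. *Isg15*, a ubiquitin-like modifier, had an FPKM of 19.2 in WT and was listed at 0 in the KO. *Usp18*, which removes this modifier, had 12.1 and 0.809 (-3.74). *Psmb8* and *Psmb9*, subunits of the immunoproteasome, had 71.0 and 5.22 and 9.35 and 1.32. The modifier, its enzyme and both subunits were thus all lower. The transcription factor *Irf1* (79.9 and 10.3, -2.94) was also lower, while *Irf9* (4.19 and 4.22) and *Stat2* (3.32 and 2.32) were not called. *Bst2*, a restriction factor that tethers virus particles, had 88.9 and 27.5, and *H2-K1*, a class I antigen, had 92.2 and 37.4. *B2m* (56.9 and 51.2), *H2-D1* and *Tap1* were not called. Of the 18 members 12 rose more than 2-fold from day 2 to day 3 in WT, against 5.79% of all genes examined over this step, and 6 of these also rose in the KO, about the 50.5% of all genes rising in WT. *Isg15* stood at 1.24 in *T* KO and 1.76 in dKO cells on day 3, *Irf1* at 64.7 and 14.8, and *Psmb8* at 14.6 and 8.20.

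The interferon-stimulated response element, read as 2 copies of GAAA with any 2 bases between them, was searched on both strands of the same 300-base windows. It occurred in 3.99% of all 27025 promoters and in 8 of the 16 interferon genes with a promoter in the table (50.0%), namely *Stat2*, *Isg15*, *Ifit1*, *Ifit3*, *Oas1a*, *Rsad2*, *B2m* and *Bst2*. The 250 bases before the start are shown for 3 genes that were lower in the KO and hold more than 1 match, with the matches in capitals and overlapping matches merged. *Isg15* (chr4:156200819-156201068, minus strand) had 19.2 in WT and 0 in the KO, *Ifit1* (chr19:34640639-34640888, plus strand) 4.26 and 0.202, and *Ifit3* (chr19:34583279-34583528, plus strand) 1.77 and 0.102. Both *Ifit* genes encode proteins that bind foreign RNA.
*Isg15*: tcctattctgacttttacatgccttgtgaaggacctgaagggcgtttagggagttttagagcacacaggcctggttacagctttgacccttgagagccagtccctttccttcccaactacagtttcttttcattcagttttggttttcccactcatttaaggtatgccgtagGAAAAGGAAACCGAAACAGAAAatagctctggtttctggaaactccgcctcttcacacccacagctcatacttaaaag
*Ifit1*: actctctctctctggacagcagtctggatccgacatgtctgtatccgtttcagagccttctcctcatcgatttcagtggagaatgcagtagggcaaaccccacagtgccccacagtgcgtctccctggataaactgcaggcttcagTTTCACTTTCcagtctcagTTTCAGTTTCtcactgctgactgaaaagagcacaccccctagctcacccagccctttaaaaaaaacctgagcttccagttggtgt
*Ifit3*: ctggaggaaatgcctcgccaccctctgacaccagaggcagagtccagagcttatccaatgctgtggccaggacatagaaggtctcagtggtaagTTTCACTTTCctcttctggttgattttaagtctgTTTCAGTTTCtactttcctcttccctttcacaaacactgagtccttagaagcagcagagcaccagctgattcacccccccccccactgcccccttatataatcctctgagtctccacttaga
In *Isg15* 3 overlapping matches on the strand of the gene began 78, 72 and 66 bases before the start. In *Ifit1* the 2 matches began 104 and 85 bases before the start, and in *Ifit3* 156 and 122 bases before it, on the opposite strand. *B2m* held the element and was not called, so the letters alone did not sort the lower genes.

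Several neural genes were higher. Of 28 neural genes 16 were examined, 5 were higher and 1 lower, with a median of 0.62, and on the TPM scale 8 were higher and 1 lower. *Irx3* and *Irx5*, neighbouring homeobox genes on chromosome 8, had an FPKM of 0.72 in WT and 18.3 in the KO (4.49) and of 0.12 and 5.30 (4.62). *Sox1*, the earliest neuroectoderm factor, had 0.199 and 5.75 (4.29). *Tal2*, a midbrain factor, had 1.42 and 5.12, and *Zic2*, an epiblast and neural plate factor, had 15.5 and 32.9. These were the 5 higher members, of which *Irx3*, *Irx5* and *Sox1* passed the minimum only by way of the KO column, where they were high. *Pax6*, a definitive neural marker, was below the minimum on day 3 (0.049 and 0.691) but had stood at 0.100 in WT and 4.54 in the KO on day 2 and was at 4.03 in dKO cells on day 3. On day 2, 7 of 16 examined members were higher and none lower, among them *Sox1* (0.2 and 7.17) and *Irx3* (0.893 and 4.43). On that day *Pax6*, *Sox1*, *Irx3*, *Irx5* and *Tal2* likewise passed the minimum by way of the KO column alone. The counts were thus partly set by the minimum, and without it the median on day 3 was 0.20. On day 3 *Sox2* (21.2 and 35.2) and *Sox3* (2.41 and 1.19) were not called, and *Pax2*, *Six3* and *Neurog2* were at 0 in both columns. *Cdh2*, N-cadherin, which mesoderm also expresses, was the lower member (5.81 and 0.719, -2.85). The summed FPKM of the list was 129 in WT and 182 in the KO.

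Among 16 definitive endoderm genes 6 were examined and 2 were lower, *Gsc* and *Foxa2*. *Foxa2*, a forkhead factor of endoderm and axial mesoderm, had 4.71 and 0.0791 (-4.75). *Sox17* (0.0834 and 0.0848), *Cer1* (0.266 and 0.0705) and *Cxcr4* (0.901 and 0.0453) were below the minimum, and *Shh* was at 0 in both. *Foxa2* stood at 2.80 in *T* KO and 0.31 in dKO cells. No pluripotency gene was called higher. Of those examined, 11.1% of naive genes and 16.7% of core and formative genes were lower, against 8.69% of all genes. Of 14 naive genes 9 were examined and 1, *Klf5*, was lower (10.7 and 4.35). Of 18 core and formative genes all were examined and 3 were lower, *Fgf5*, *Tdgf1* and *L1td1* (108 and 32.0), the last an RNA-binding protein. *Pou5f1* had 486 and 253 (-0.94), *Nanog* 124 and 70.8, and *Dnmt3b* 95.5 and 134, none of them called.

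Of 22 epithelial genes 21 were examined, 2 were lower and 2 higher, near the share of all genes, at a median of -0.13. E-cadherin, *Cdh1*, had 144 in WT and 135 in the KO, *Epcam* 258 and 213, and the keratins *Krt8* and *Krt18* 645 and 713 and 882 and 807. *Rab25*, a GTPase of epithelial recycling (5.12 and 1.31), and *Crb3*, a polarity protein (29.7 and 13.5), were lower. On the mesenchymal side 13 of 17 genes were examined, 4 lower and 3 higher (median 0.19). *Vim*, vimentin, had 276 and 73.0 (-1.92), and with *Cdh2*, *Twist1* and *Cdh11* (1.15 and 0.144) it was lower. *Snai2*, a repressor of E-cadherin, had 0.927 and 5.89 (2.54), and *Prrx2* and *Crb2* were the other higher members. *Fn1* (18.8 and 22.1), *Mmp2* and *Mmp14* were not called. *Snai2* stood at 0.811 in *T* KO and 0.786 in dKO cells on day 3, below the *Eomes* KO in both.

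Markers of cells other than mesoderm were read as well. Of 12 fibroblast genes, read because the mESCs had grown on feeders, 4 were examined and 2 (50%) were higher, against 6.82% of all genes. The list summed to 7.32 in WT and 13.7 in the KO, with *Pdgfrb* the most abundant (3.03 and 5.81), and *Col1a1* (0.49 and 0.946), *Col3a1* (0.0776 and 0.155) and *Dcn* (0.121 and 0.13) were below the minimum. Of 14 visceral and parietal endoderm genes 2 were examined and *Ttr*, a secreted carrier protein, was higher (0 and 1.11). The list summed to 3.00 and 5.99, with *Plat* the most abundant, and *Afp* (0.0599 and 0.0589) was near 0. Of 16 blood and endothelium genes 5 were examined. *Etv2* (2.48 and 0.547) and *Lmo2* (1.40 and 0.107), early regulators of both lineages, were lower and *Pecam1*, an adhesion molecule, was higher (3.38 and 8.37). The list summed to 18.3 and 25.2 with *Flt1* the most abundant, *Tal1* (0.048 and 0.0388) and *Cdh5* (0.0744 and 0.0308) were near 0, and *Tie1* and *Sox18* were at 0. Of 11 germ cell genes 7 were examined and 3 were lower, *Dnd1* (16.5 and 5.27), *Ifitm3* (65.8 and 28.3) and *Ifitm1* (33.8 and 15.4), of which *Dnd1* alone was called on the TPM scale or after trend removal. The list summed to 148 and 81.2, with *Ifitm3* the most abundant in WT. The part of such cells in the other results was not tested.

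Of 26 imprinted genes 22 were examined, with a median of 0.33. Of these, 2 (9.09%) were lower and 8 (36.4%) higher, against 8.69% and 6.82% of all genes. *Igf2*, the growth factor gene next to *H19*, had 118 in WT and 422 in the KO (1.83). The other higher members included *Meg3* (3.77 and 22.8), *Mest* (43.7 and 121), *Nnat* (15.9 and 39.0), *Peg10* (127 and 262) and *Rian* (84.9 and 175). *Snrpn*, a splicing protein gene, was the other lower member (118 and 35.2). In the WT time course *H19* rose steeply, from 10.4 before differentiation to 627 on day 3, by way of 20.3 on day 1 and 129 on day 2. In *Eomes* KO cells on day 2 it was already at 0.741.

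Of 23 extracellular matrix and integrin genes 20 were examined, 5 (25%) were higher, against 6.82% of all genes, and none was lower. *Hspg2*, perlecan, had 7.11 and 20.5 (1.51), *Col5a1* 6.05 and 15.9 (1.38), *Col4a1* 12.4 and 26.4, *Nid1* 5.17 and 10.8, and *Tnc* 0.353 and 1.78. These transcripts are long, and after removal of the length and GC trend 2 remained higher. In the retinoic acid pathway 10 of 16 genes were examined, 4 (40%) lower and 3 (30%) higher, against 8.69% and 6.82% of all genes. *Cyp26a1*, which degrades retinoic acid, had 9.40 and 1.22 (-2.85), and *Aldh1a2*, which makes it, 1.06 and 0.163. *Rarb*, a receptor that is itself a target, had 0.148 and 2.32 (3.29). The chemokine *Cxcl12* was higher, at 1.41 and 12.7 (3.09), whereas its receptors *Cxcr4* and *Ackr3* (0.652 and 0.422) were below the minimum. Among 30 guidance genes 22 were examined, 4 (18.2%) lower and 5 (22.7%) higher. *Epha1*, an ephrin receptor, was the most abundant of the lower ones (32.7 and 5.33) and *Nrp1*, a semaphorin co-receptor, the most changed of the higher ones (0.516 and 3.86, 2.69).

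Of 20 hypoxia and glycolysis genes 19 were examined and 5 (26.3%) were lower, against 8.69% of all genes, at a median of -0.31. *Ldha*, lactate dehydrogenase, had 1350 in WT and 526 in the KO (-1.36), *Eno1*, enolase, 697 and 231 (-1.59), *Pgk1*, phosphoglycerate kinase, 506 and 212 (-1.25), and *Pfkl*, phosphofructokinase, 107 and 39.2. *Gapdh* (95.3 and 109) and the glucose carriers *Slc2a1* (474 and 533) and *Slc2a3* (636 and 634) were not called, and after TPM rescaling 3 members were lower. Of 15 *Atf4* targets 14 were examined and 4 were lower, among them the serine synthesis gene *Psat1* (138 and 45.4). Of 17 immediate early genes 12 were examined and 2 (16.7%) were lower, *Ier2* (18 and 5.68) and *Atf3* (16.4 and 7.01), against 8.69% of all genes. On day 2, when 3.78% of all genes were lower, 8 of 15 were. Of 16 Notch pathway genes 11 were examined and *Dll3* was the one called, and of 22 amnion and trophoblast genes 16 were examined, with 4 lower, led by *Eomes*, and 3 higher, among them *Trp63* (0.00867 and 1.28), a factor of surface ectoderm. Of 14 cyclins and Cdk inhibitors all were examined, and *Cdkn1a* alone was called (16.4 and 6.57), so that Notch genes and cyclins were called lower about as often as the 8.69% of all genes.

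The strongest ratios were also taken by rank. Of the called protein-coding genes whose larger FPKM was 10 or more, 571 were lower and 112 higher. The 15 lowest included *Msgn1*, *Isg15*, *Eif3j1*, *Mixl1*, *Amd1*, *Aplnr*, *Fst*, *T*, *Rspo3*, *Apln*, *Eomes*, *Fgf8*, *Sp5* and *Grrp1*. *Grrp1* had an FPKM of 10.9 in WT and 0.334 in the KO (-4.66). *Eif3j1* and *Amd1* have near-identical copies among which reads may be divided, and summed with *Eif3j2* and *Amd2* their log2 ratios were -1.37 and -0.80. The highest was *Irx3*. *Adnp* had 0.776 and 14.0 (4.01) but overlaps *Gm20716*, and the sum of both had a log2 ratio of 0.50. *Akr1b3*, aldose reductase, had 1.77 and 11.3 (2.61), *Pdzrn3*, a ubiquitin ligase, 1.85 and 10.1 (2.39), *Zfp423*, a zinc-finger partner of SMADs, 2.85 and 10.6 (1.85), *Gap43*, an axon growth protein, 8.17 and 31.4 (1.93), and *Bmf*, a pro-apoptotic factor, 3.70 and 14.5 (1.94). *Prag1*, *Zmiz1*, *Leng8* and *Plxdc2* had ratios of 2.01, 1.99, 1.98 and 1.77. *Zfp990* and *Dynlt1f* belong to families of copies, and summed with them their ratios were 1.72 and 0.64 in place of 1.81 and 1.76.

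Day 3 was set against day 2 of the same line. On day 2, 424 (3.78%) of 11226 genes were lower and 358 (3.19%) higher in *Eomes* KO than in WT cells, together 6.97%, against 8.69% and 6.82% on day 3. The WT columns of the days are separate. Genes lower on both days numbered 121, which is 12% of the day 3 list and 28.5% of the day 2 list, and genes higher on both days 81, or 10.2% and 22.6%. Of the nascent mesoderm list 14 genes were examined on day 2, with 4 lower and 2 higher, compared with 16 lower of 18 on day 3. *T* on day 2 had 43.1 in WT and 22.3 in the KO, and was within 2-fold. *Tdgf1* stood at 564 in WT and 1051 in the KO on day 2 before it was lower on day 3, and *Spry4* at 5.87 and 11.4. *Evx1* (3.47 and 3.8), *Wnt3* (16.3 and 13.5), *Nodal* (31.9 and 26.3) and *Lefty2* (29.8 and 32.6) were near their WT levels on day 2. *Cdx2*, a factor of posterior fate, stood at 0.61 in WT and 3.65 in the KO on day 2 and at 7.58 and 0.439 on day 3. It belongs to a list of 42 *Cdx* and *Hox* genes, of which 7 were examined on day 2 and all 7 were higher. On day 3, 5 were examined and 3 were lower (*Cdx2*, *Hoxb1* and *Hoxb2*). On day 2 *Cdx1* (0.203 in WT and 1.03 in the KO) and *Cdx2* passed the minimum only by way of the KO column, where they were high. On day 3 *Cdx2* passed it only by way of WT. The counts of this list were thus partly set by the minimum, and no conclusion is drawn from them.

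The step from day 2 to day 3 was read in each line, with the KO columns scaled to the WT time course. In WT 659 (5.79%) of 11380 genes rose and 436 (3.83%) fell by more than 2-fold, together 9.62%. In the KO 1236 (10.9%) of the same genes rose and 1250 (11%) fell, together 21.8%. Of the 659 genes rising in WT, 333 (50.5%) rose in the KO, 52 (7.89%) fell and 274 did neither. Of the 436 falling in WT, 218 (50%) fell in the KO and 12 rose. The 70 genes that rose more than 8-fold in WT had median log2 changes of 3.63 in WT and 0.53 in the KO, where 25 rose and 10 fell. Of the 12 nascent mesoderm genes among the WT risers none rose in the KO. *T* went from 43.5 to 320 in WT and from 22.5 to 4.27 in the KO. *Fst*, *Rspo3* and *Mixl1* likewise rose in WT and fell in the KO, and *Msgn1* was at 0 in the KO on both days. By contrast, *Igf2* and *Hand1* rose more steeply in the KO than in WT.

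**Figure D3:**
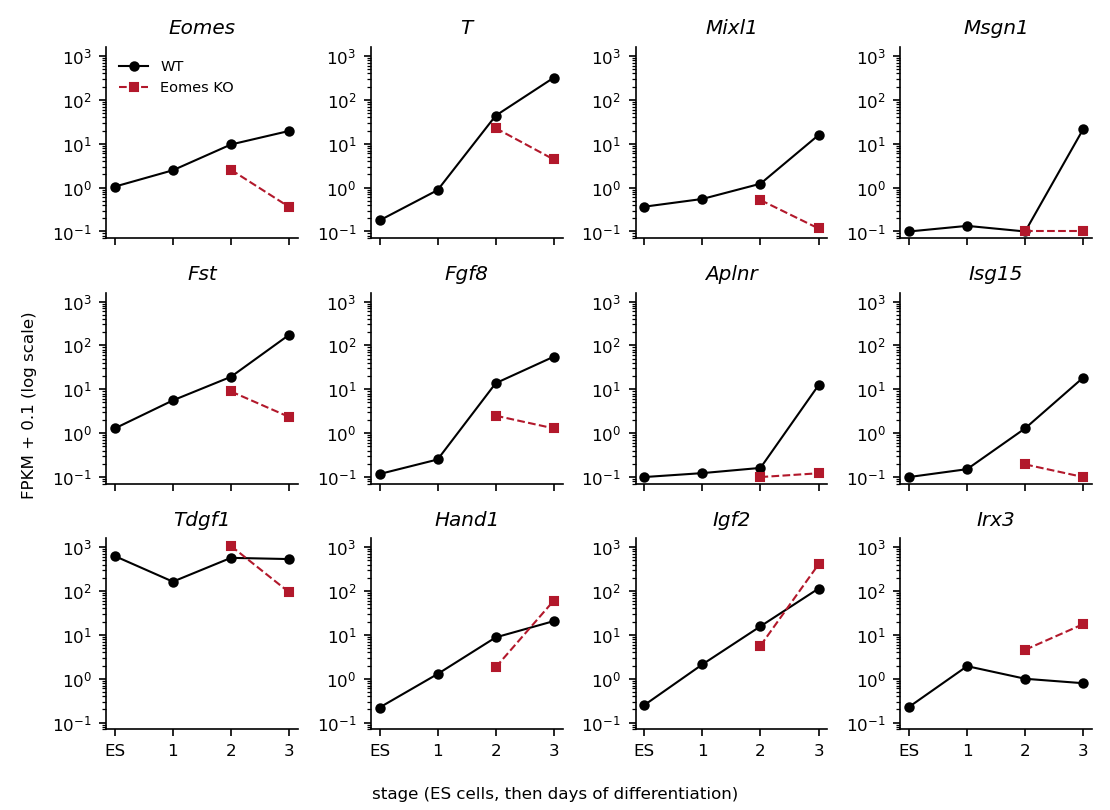
FPKM + 0.1 (log scale) of 12 genes in WT cells (black circles) in ES cells and on days 1, 2 and 3, and in *Eomes* KO cells (red squares) on days 2 and 3, scaled to the WT time course; each point is the authors' single value. WT *T* climbs to 320 on day 3 whereas the KO drops from 22.5 to 4.27, and *Hand1* and *Igf2* cross from below to above WT.

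**Figure D4:**
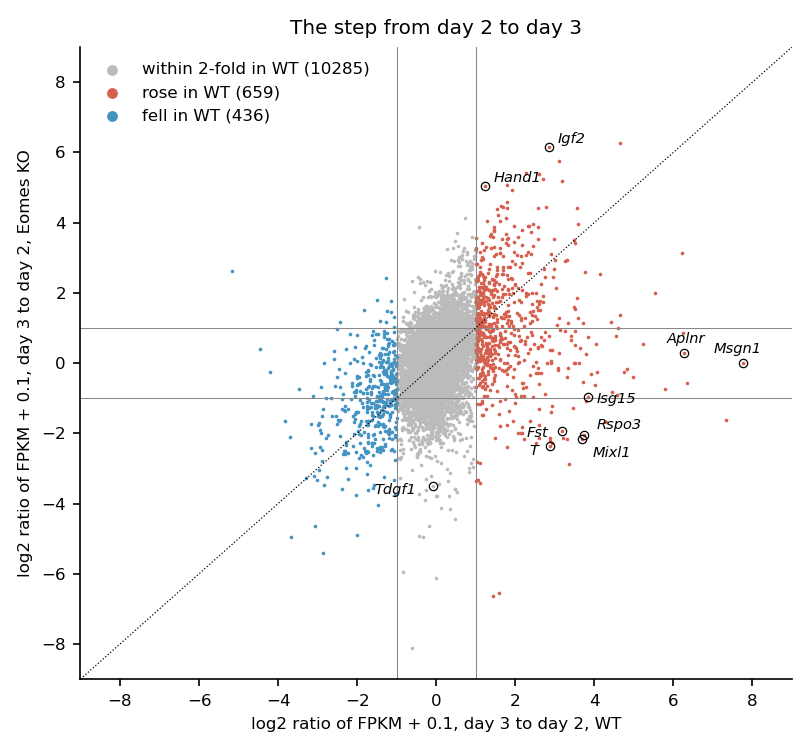
Each point is 1 of 11380 genes, with the log2 ratio of FPKM + 0.1 on day 3 to day 2 in WT (x axis) and in *Eomes* KO cells (y axis); red genes rose (659) and blue genes fell (436) past 2-fold in WT, grey lines mark 2-fold and the dotted line equal change. *T*, *Mixl1*, *Fst* and *Rspo3* lie to the right and below zero, and *Igf2* and *Hand1* lie above the dotted line.

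Other lines on day 3 share the WT samples with this comparison, so their values are set side by side without a measure of likeness, and each table was scaled separately. Calls in *T* KO cells were 409 lower (3.64%) and 203 higher (1.81%) of 11239 genes, together 5.45%, and in dKO cells 600 (5.23%) and 580 (5.06%) of 11473, together 10.3%. *Mixl1* stood at 0.105 in *T* KO and 0.173 in dKO cells, and *Mesp1* at 0 in both. *Fst* stood at 3.8 and 8.27, and *Rspo3* at 0.0335 and 0.309. These mesoderm genes were thus low in all 3 KO lines. *Fgf8* was at 16.8 in *T* KO and 10.5 in dKO cells against 1.24 in *Eomes* KO cells, *Nodal* at 37.1 and 17.8 against 8.31, and *Tdgf1* at 380 and 497 against 97.8. *Fgf5* was at 30.6 in *T* KO cells and 4.05 in dKO cells against 1.15. *Spry4* was at 7.45 and 2.27 against 0.767, and *Dusp6* at 47.2 and 25.5 against 11.7. For these signalling genes the *Eomes* KO column held the lowest value of the 4. *Sox1* was at 0.914 in *T* KO and 6.49 in dKO cells against 5.75, *Irx3* at 2.64 and 10.5 against 18.3, and *Cxcl12* at 4.68 and 4.60 against 12.7.

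**Figure D5:**
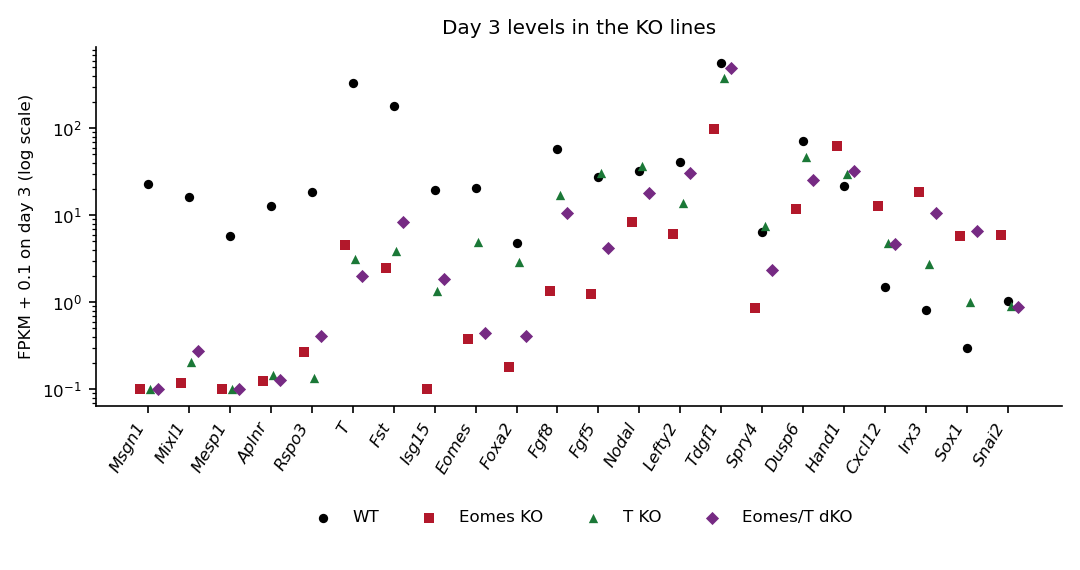
FPKM + 0.1 on day 3 (log scale) of 22 genes in WT (black circles), *Eomes* KO (red squares), *T* KO (green triangles) and *Eomes*/*T* dKO cells (purple diamonds), 1 value per line and gene. The mesoderm genes on the left are low in all 3 KO lines, and *Nodal*, *Tdgf1* and *Spry4* are lowest in *Eomes* KO cells (8.31, 97.8 and 0.767).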

How the data were processed

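RNA-seq of the WT day 3 samples and the *Eomes* KO day 3 sample was read together with the other F1G4 columns. The libraries, from total RNA, were strand-specific (ScriptSeq v2) and read from both ends. Per the submitters' processing notes and the methods, the authors used FastQC, cutadapt 2.9, HISAT2 2.1.0 and SAMtools 1.9 on mm10 with refSeq genes, and Cuffdiff 2.2.1 with correction for multi-reads and bias but not for effective length. The deposited values are FPKM, 1 per gene and condition. Depth and counting precision are unknown, and no interval could be given. Columns of other series numbered 0.

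A gene was examined above FPKM 1 in either column and called beyond a log2 ratio of 1 or -1 with a pseudocount of 0.1. Ratios were taken within a table. For the step between days, KO columns were divided by the ratio of their WT column to the time course (0.991 on day 2 and 1.04 on day 3). With pooled columns no SD, test or p was computed, and 36 gene lists were described by counts and medians beside all genes. The members and lists were chosen with earlier results of these data known. Named genes are *Eomes* and *T*, members of the lists, and the 15 lowest and 15 highest ratios among called protein-coding genes with FPKM of at least 10. Any other gene was chosen after its values were seen. Some genes that these rules select are not reported here. Transcript length and GC content came from the GRCm38 annotation (11575 of 11629 genes, 99.5%), and promoters from RefSeq (GRCm38.p6; 9073 of 11629 genes matched). Guide sequences came from the study's oligonucleotide list and were located in GRCm38.

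Alternatives were no pseudocount or 1, no minimum or 5, TPM, a median ratio of 1, protein-coding genes with transcripts over 300 bases, and, chosen after seeing the data, removal of the trend with GC content and length in 20 groups. Python 3.11.15, numpy 2.4.6, pandas 2.3.3 and matplotlib 3.10.9 were used, and the calling step was tested on simulated data. Fold changes and p-values of the authors were not used.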

Additional observations from a re-analysis of the deposited data

Results flagged for a closer look

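In 15 genes of the lists and ranks the *Eomes* KO was on opposite sides of WT on day 3 and day 2, past 2-fold both times. The difference between the days was not tested, each day has its own WT column, and every value below is a log2 ratio of KO to WT. Higher on day 3 and lower on day 2 were *Akr1b3* (2.61 and -1.01), *Hand1* (1.55 and -2.26), *Igf2* (1.83 and -1.47), *Peg10* (1.05 and -1.95), *Col5a1* (1.38 and -1.38), *Nid1* (1.05 and -1.53) and *Efna5* (1.07 and -1.41), which take in lateral mesoderm, imprinted and matrix genes. Lower on day 3 and higher on day 2 were *Cdx2* (-3.83 and 2.40), *Hoxb1* (-2.88 and 3.09), *Hoxb2* (-1.08 and 4.18), *Lef1* (-1.01 and 1.06), *Lefty1* (-1.69 and 1.35), *Lmo2* (-2.86 and 1.06), *Pcdh8* (-2.27 and 1.68) and *Tcf15* (-2.48 and 1.77). Of these, *Cdx2*, *Lmo2* and *Pcdh8* passed the minimum on day 2 only by way of the KO column and on day 3 only by way of WT. Their place in this list was thus partly set by the minimum, and no conclusion is drawn from it. Across all genes, 43 were lower on day 3 and higher on day 2, and 30 were higher on day 3 and lower on day 2. Some day 3 calls named here were lost in alternatives, that of *Hoxb2* on the TPM scale and that of *Peg10* after trend removal. *Lef1* lost its call in both. Of the matrix list 2 genes stayed higher on day 3 after trend removal. The trend with transcript length ran in opposite directions on the 2 days, and its part in these sign changes was not tested.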

How the results depend on the processing

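No paired analysis was possible because the columns carry no replicate numbers (each is 1 pooled value per condition), and for the same reason no replicate could be left out. The 1804 calls became 1083 with a pseudocount of 1, 3173 without an FPKM minimum and 1003 with a minimum of 5, which tests fewer genes. Higher calls (793) became 332 with a pseudocount of 1, 1698 without a minimum, 280 with a minimum of 5 and 1509 on the TPM scale, where lower calls (1011) became 645, since the ratios of well-expressed genes move up. The median log2 ratio of nascent mesoderm (-3.75) was -4.40 without a pseudocount, -2.54 with a pseudocount of 1, -3.41 without a minimum and -4.33 with a minimum of 5. That of paraxial mesoderm (-2.31) was -1.42, -1.63 and -6.08 in the last 3 of these settings. With a pseudocount of 1, apelin genes had -3.76 and interferon genes -1.30. Without a minimum, neural genes had 0.20 and WNT ligands -0.11, and with a minimum of 5 WNT ligands had -2.08 and ERK feedback genes -1.72. FGF ligands and receptors (-1.44) had -0.85, -0.68 and -0.22 without a pseudocount, with a pseudocount of 1 and without a minimum, and reversed to 0.70 with a minimum of 5, where low ligands drop out. Cardiac and lateral mesoderm reversed to 0.15 without a minimum and 0.44 with a minimum of 5, and *Cxcl12* with its receptors reversed to -0.53 without a minimum, as genes near 0 enter or leave the list. The yardstick of 4.43% became 1.99% with a pseudocount of 1 and 2.35% with a minimum of 5. With the trend in GC content and length removed, an alternative chosen after seeing the data, 849 genes were lower and 818 higher. Of 161 named genes called, 30 lost the call with a pseudocount of 1, 15 on the TPM scale, 17 with the trend removed and 3 with a median ratio of 1, and none of them changed direction in any alternative that gave it a value. Where no construction is named, the cause was not tested.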

Other observations

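Genes that rose most in WT cells from day 2 to day 3, taken by rank on the time-course scale, included several outside the report's lists. *Nab2*, a co-repressor of early growth response factors, went from 1.67 to 29.5 in WT and from 5.33 to 4.41 in *Eomes* KO cells. The interferon-inducible genes *Oasl2*, *Irgm2* and *Igtp* went from 1.19 to 16.0, from 1.12 to 14.5 and from 1.76 to 21 in WT, and from 0.772 to 1.06, from 0.659 to 1.74 and from 1.41 to 2.05 in the KO. *Tmprss2*, a membrane protease, rose in both lines, from 1.62 to 20.4 in WT and from 0.552 to 10.1 in the KO. *Tmem176b*, a membrane protein gene, went from 0.601 to 12.2 in WT and from 0.419 to 2.9 in the KO.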
